A study of Mus musculus with 12 samples.

Results

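A set of 100 genes was higher in every LSD1cKO library than in any LSD1WT library, by at least 1.5-fold, in preosteoclasts cultured from mouse bone marrow. Members were chosen on the measured values themselves. Counts were expressed as CPM, which is a gene's reads over all counted reads of a library, times 1000000. Of 57010 genes listed, 12512 had a mean of at least 1 CPM over the 12 libraries, and of these 111 had a lowest LSD1cKO value at least 1.5 times the highest LSD1WT value, which is 0.887% of the genes examined. Leaving out 11 genes set aside by name gave the 100 members. Those 11 were Gfi1b, Bst1, Spn, Clec5a, Cd24a, Mmp25, Ly6a, Ly6i and the 3 genes Sirpb1a, Sirpb1b and Sirpb1c. Because the rule used the difference between the genotypes, every genotype value below is a description and carries no test.

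The libraries were polyA RNA from female mice, aged 2 months by the labels and 3 months by the study's sequencing methods. Marrow was taken from the mandible or femur of mice that had worn a tooth ligature for 7 days, which induces periodontitis, or from the femur of mice with no ligature, and was grown for 2 days in M-CSF and RANKL, the cytokines that drive osteoclast formation. Each of the 6 conditions, LSD1WT or LSD1cKO in ligated mandible, ligated femur and unligated femur, had 2 libraries, so each genotype had 6. LSD1cKO mice lack Lsd1, gene symbol Kdm1a, in myeloid cells through Cre driven from the lysozyme 2 locus (LysM-Cre), so cells without lysozyme 2 expression can keep the gene. The 12 libraries came from 9 mice by their labels, since mandible and femur libraries were made from the same animal for 1 LSD1WT and 2 LSD1cKO mice with ligatures, and spread between libraries therefore covers a small number of animals.

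Total counts ran from 21375805 to 32526751 per library. Kdm1a was at 59.96 to 72.2 CPM in LSD1WT and 15.8 to 26.3 CPM in LSD1cKO, so each library matched its genotype label. A library named mandible LSD1WT replicate 3 had conflicting labels, mandible in its title and femur in its library name, and was taken by its title. Its counts and those of mandible LSD1WT replicate 1 had a median squared difference over genes 1.55 times that of sampling noise, against 4.89 to 87.6 times in the other pairs. Replicate 2 of both femur LSD1WT conditions stood apart. The summed CPM of 10 osteoclast genes (Acp5, Ctsk, Nfatc1, Dcstamp, Ocstamp, Itgb3, Atp6v0d2, Calcr, Mmp9 and Oscar) was 153 and 230 there, against 26378 to 38888 in the other LSD1WT libraries and 12116 to 28188 in LSD1cKO. The 10 monocyte and macrophage genes summed to 7201 and 6418 CPM there, against 2162 to 3297 and 1957 to 4375. In bulk RNA, fewer cells of a type and less RNA per cell cannot be told apart.

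LSD1 removes methyl groups from lysine 4 of histone H3 at promoters and enhancers. It works in the CoREST complex beside histone deacetylases and is brought to DNA by zinc-finger repressors such as GFI1 and GFI1B. In myeloid precursors the complex is known as a repressor of genes of alternative lineages and of immune genes. Gfi1b itself, which encodes one of these partners, met the rule with a ratio of lowest LSD1cKO to highest LSD1WT CPM of 9.75 and was among the genes set aside.

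Members were spread over many functions. By known roles, 13 were placed with paired immune receptors, which here include their ligands, antigen-presenting molecules, a kinase that serves them and the pseudogene Pira2-ps1, 14 encode cytokines, mediators and their receptors, 8 encode transcription and chromatin regulators, 10 encode transporters and channels, 13 were placed with enzymes, among them Gm5424, a transcribed pseudogene, 13 encode adhesion, matrix and junction proteins, 14 act in trafficking, the cytoskeleton and ubiquitin transfer, and 15 are non-coding, predicted or little described. The ratio of lowest LSD1cKO to highest LSD1WT CPM ran from 1.502 to 7.21 with a median of 1.86, and it was at least 2 in 42 members and at least 3 in 19. The fold between the 2 genotype means ran from 2.06 to 23.9 with a median of 4.39. The lowest count of any member in any LSD1cKO library was 29 reads. The direction was uneven over the whole table, where 310 genes (2.48%) had every LSD1cKO library above every LSD1WT library and 67 (0.535%) had every one below. Only 3 genes (0.024%) met the rule in the opposite direction, namely Kdm1a, P4ha2 and Six5.

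**Figure D1:**
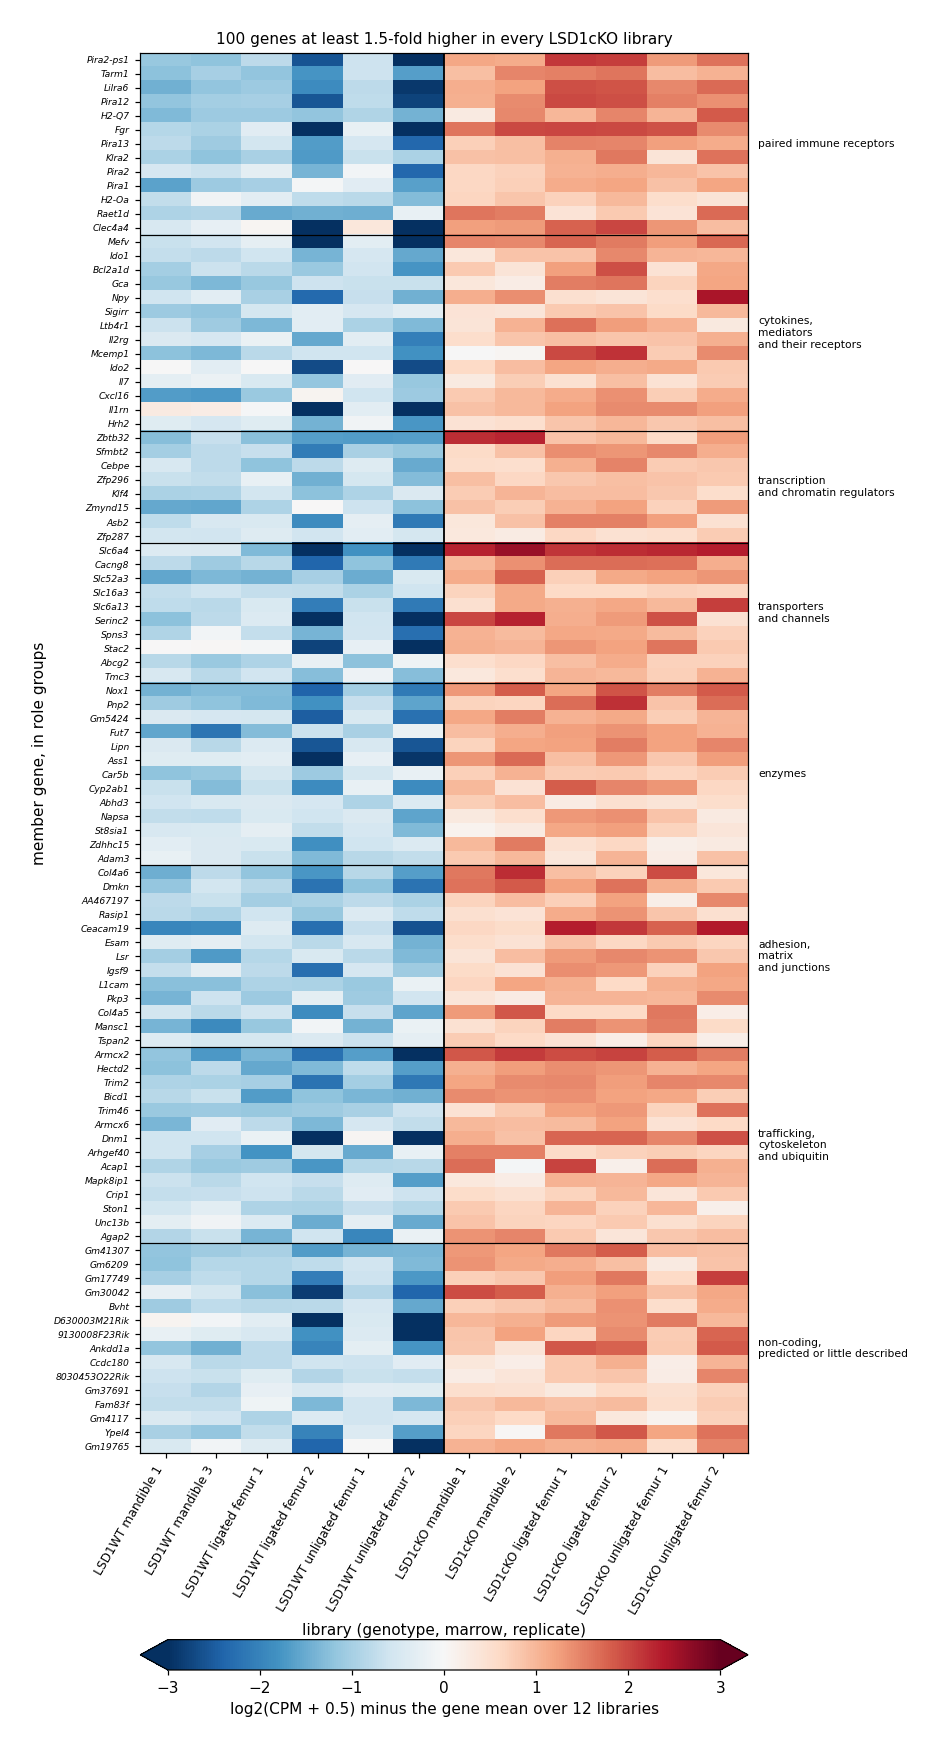
Heat map of the 100 members (rows, in role groups and by falling ratio within a group) in 12 libraries (columns). Colour is log2(CPM + 0.5) minus the gene's mean over the libraries, and LSD1WT libraries are left of the vertical line. All members are higher on the right, by the rule, and the deepest blue stands in replicate 2 of the 2 femur LSD1WT conditions, where 5 and 8 members had 0 counts.

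The promoter is the DNA around a gene's start at which such repressors and activators can bind. RefSeq promoter windows of GRCm38.p6, from 250 bases before to 50 after a start, were found for 70 of the 100 members, 93 windows in all, while the counts were made on GRCm39 and carry no coordinates. The windows below are those of Armcx2 and Nox1, with the largest and the third largest ratios, of Tarm1 and Lilra6, which lie in the paired receptor cluster, and of Il1rn, a cytokine antagonist for which the first of its windows is shown. Each is printed 5′ to 3′ along the gene, and capitals mark matches on either strand to the motifs named after them.

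Armcx2, chrX:134809172-134809471, minus strand: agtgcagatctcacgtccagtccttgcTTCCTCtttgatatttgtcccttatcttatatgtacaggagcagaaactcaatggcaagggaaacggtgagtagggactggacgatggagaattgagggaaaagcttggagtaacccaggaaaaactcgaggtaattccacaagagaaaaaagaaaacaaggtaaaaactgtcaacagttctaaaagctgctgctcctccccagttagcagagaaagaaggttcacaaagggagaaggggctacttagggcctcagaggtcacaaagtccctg
Nox1, chrX:134111805-134112104, minus strand: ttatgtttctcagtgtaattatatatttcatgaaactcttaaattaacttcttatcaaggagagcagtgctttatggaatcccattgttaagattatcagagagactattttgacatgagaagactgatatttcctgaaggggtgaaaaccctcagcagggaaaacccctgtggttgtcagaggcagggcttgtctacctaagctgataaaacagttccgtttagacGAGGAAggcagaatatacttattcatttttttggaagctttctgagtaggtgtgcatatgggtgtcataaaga
Tarm1, chr7:3502575-3502874, minus strand: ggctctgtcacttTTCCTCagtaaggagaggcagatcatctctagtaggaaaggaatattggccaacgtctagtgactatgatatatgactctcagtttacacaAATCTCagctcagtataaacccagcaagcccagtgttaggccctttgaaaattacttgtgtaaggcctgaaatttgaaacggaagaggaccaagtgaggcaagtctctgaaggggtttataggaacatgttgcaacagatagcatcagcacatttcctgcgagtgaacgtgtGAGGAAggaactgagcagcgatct
Lilra6, chr7:3915452-3915751, minus strand: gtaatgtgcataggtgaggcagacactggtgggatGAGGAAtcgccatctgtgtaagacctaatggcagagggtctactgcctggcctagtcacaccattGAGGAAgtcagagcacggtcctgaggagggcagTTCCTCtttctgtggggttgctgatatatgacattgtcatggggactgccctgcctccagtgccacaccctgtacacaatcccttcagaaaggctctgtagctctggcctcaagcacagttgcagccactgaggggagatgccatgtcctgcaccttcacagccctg
Il1rn, chr2:24336610-24336909, plus strand: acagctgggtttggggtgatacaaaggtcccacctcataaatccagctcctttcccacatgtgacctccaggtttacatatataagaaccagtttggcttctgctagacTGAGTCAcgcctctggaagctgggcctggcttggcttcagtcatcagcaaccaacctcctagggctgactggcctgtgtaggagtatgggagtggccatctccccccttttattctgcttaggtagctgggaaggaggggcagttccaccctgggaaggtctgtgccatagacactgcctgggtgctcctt

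Capitals mark GAGGAA (or its reverse complement TTCCTC), part of the site of the myeloid factor PU.1, in Armcx2, Nox1, Tarm1 and Lilra6, where Lilra6 has 3 matches. In Tarm1 they also mark AATCTC, which holds the core AATC that GFI1 and GFI1B bind, and in Il1rn they mark TGANTCA, the AP-1 site. Over both strands GAGGAA was in 34.4% of member windows and 28.3% of all 32851 windows. AATCTC was in 10.8% and 11.6%, and AATCAC, the other GFI core, in 7.53% and 10.4%. TGANTCA was in 14.0% of member windows and 7.81% of all, in windows of 11 members, some of which have several overlapping windows. The remaining motifs were TTGCNNAA of C/EBP factors (11.8% and 10.8%), the interferon-stimulated response element in its GAAA repeat form (2.15% and 3.44%), and the ETS and IRF composite element (0% and 2.72%). A match is a run of letters and not a measured binding site.

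Paired immune receptors had the largest median ratio of the role groups, 2.41. These are surface receptors of myeloid cells that come in activating forms, which signal through adaptors with ITAM motifs, and inhibitory forms. Members of this group are near-identical copies in part, so reads of Lilra6, Pira1, Pira2, Pira12, Pira13 and Pira2-ps1 can be assigned to the wrong copy and their single values are uncertain. Lilra6, an activating receptor of this cluster, was at 2.44 to 12.3 CPM in LSD1WT (median 8.40) and at 46.6 to 84.0 CPM in LSD1cKO (median 65.0). Its lowest LSD1cKO library was mandible replicate 1, and the lowest LSD1WT library was unligated femur replicate 2. Pira12 ran from 3.28 to 14.7 CPM in LSD1WT (median 11.6) and from 53.5 to 101 in LSD1cKO (median 70.5). Pira2-ps1, annotated as a pseudogene, ran from 0.04 to 2.39 CPM (median 1.47) and from 9.10 to 18.8 (median 11.8). Both femur replicate 2 libraries of LSD1WT gave the lowest values of these 3 genes, and both ligated femur libraries of LSD1cKO gave the highest.

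Tarm1, an activating receptor of myeloid cells, had LSD1WT values from 0.187 to 1.01 CPM (median 0.510) and LSD1cKO values from 3.83 to 6.54 (median 5.09). Fgr, a Src-family kinase downstream of such receptors and of integrins, was at 1.04 to 30.6 CPM in LSD1WT (median 19.2) and at 97.1 to 145 CPM in LSD1cKO (median 139). The 2 lowest LSD1WT values of Fgr, 1.87 and 1.04 CPM, were those of the ligated and unligated femur replicate 2 libraries, and the other 4 were between 18.5 and 30.6 CPM. Klra2, a receptor of the Ly49 family best known from natural killer cells, was at 1.31 to 3.18 CPM (median 2.53) and at 7.14 to 17.8 CPM (median 11.2). Clec4a4, an inhibitory C-type lectin receptor known from dendritic cells, stood just inside the threshold with a ratio of 1.504, and its LSD1WT values spread 110-fold, from 0.200 to 21.9 CPM. Pira2 was 1 of the 12 members with the highest mean LSD1cKO CPM, with 8.79 to 44.5 CPM in LSD1WT (median 31.8) and 73.1 to 101 CPM in LSD1cKO (median 91.0).

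**Figure D2:**
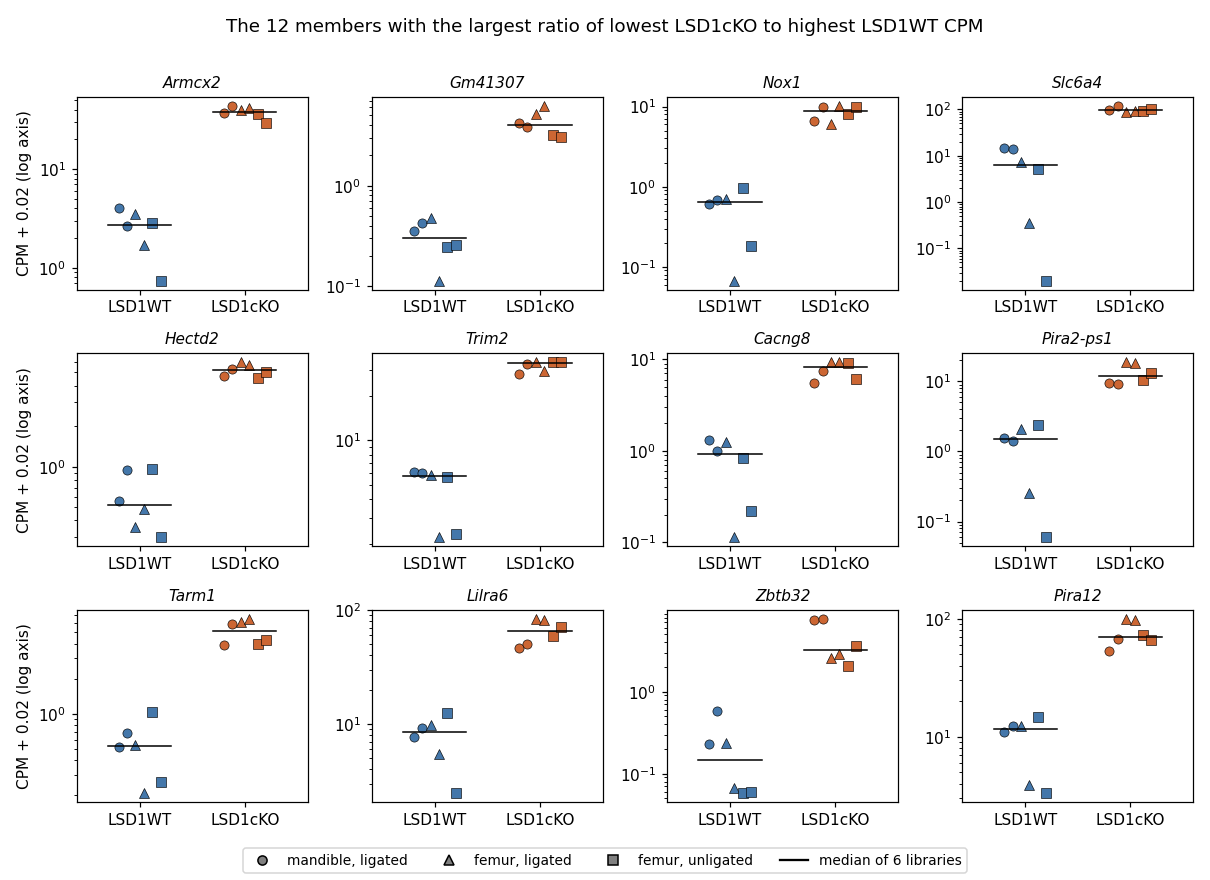
CPM + 0.02 on a log axis, scaled separately in each panel, for the 12 members with the largest ratio of lowest LSD1cKO to highest LSD1WT CPM. Each point is 1 library, its shape gives the culture and the bar is the median of 6 libraries. Armcx2 has the widest gap (4.07 to 29.3 CPM), and femur LSD1WT replicate 2 libraries give the lowest points in most panels.

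Among transporters, Slc6a4, the serotonin transporter, had 86.6 to 119 CPM in LSD1cKO (median 95.8). In LSD1WT it was at 14.5 and 14.2 CPM in the mandible, 7.47 and 0.327 in ligated femur, and 5.09 and 0 in unligated femur. The mandible LSD1WT libraries were thus the highest of their genotype, and 0 counts in unligated femur replicate 2 allow up to 0.120 CPM. Cacng8, an auxiliary subunit of AMPA-type glutamate receptors, was at 0.0936 to 1.29 CPM (median 0.894) and 5.51 to 9.28 CPM (median 8.23). Slc16a3, the lactate exporter MCT4, had a narrow LSD1WT range, 17.1 to 22.1 CPM (median 20.2), and was at 51.1 to 75.1 CPM in LSD1cKO (median 53.4). Its replicate 2 libraries of the femur LSD1WT conditions, 19.8 and 22.1 CPM, lay on either side of that median.

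Nox1, the catalytic subunit of a superoxide-producing NADPH oxidase, led the enzymes with a ratio of 6.43. It was at 0.0468 to 0.935 CPM in LSD1WT (median 0.624) and at 6.02 to 10.2 CPM in LSD1cKO (median 8.83). Ass1, argininosuccinate synthase, which regenerates arginine from citrulline, was at 2.43 to 20.2 CPM (median 18.6) and at 42.9 to 78.8 CPM (median 59.0). Gm5424, annotated as a copy of Ass1, was also a member, with a fold between means of 4.38 against 4.23 for Ass1, and reads of both can be shared. Napsa, an aspartic protease of the lysosomal pathway, was at 17.6 to 39.2 CPM (median 33.3) and at 64.7 to 138 CPM (median 87.0). Adam3, of the ADAM protease family known from sperm, had a ratio of 1.504 and was low in both genotypes, at 0.234 to 1.08 CPM (median 0.623) and 1.62 to 3.22 CPM (median 2.76).

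Armcx2, from an X-linked family of armadillo-repeat proteins, had the largest ratio of all members, 7.21. LSD1WT libraries held 0.719 to 4.07 CPM (mean 2.56 ± 1.21, SD, n = 6) and LSD1cKO libraries 29.3 to 43.6 CPM (mean 37.8 ± 5.02, SD, n = 6). Its relative Armcx6, separated from it by 1 gene in RefSeq order, was a member too, with a fold between means of 4.08 against 14.8 for Armcx2. Trim2, a RING-type ubiquitin ligase, was the steadiest member across LSD1cKO, at 27.8 to 33.6 CPM (median 33.2), a spread of 1.21-fold, against 2.20 to 6.06 CPM in LSD1WT (median 5.70). Hectd2, a HECT-type ubiquitin ligase, was at 0.280 to 0.935 CPM (median 0.504) and at 4.52 to 5.94 CPM (median 5.18). Crip1, a small LIM-domain protein, was at 63.7 to 88.1 CPM (median 71.3) and at 145 to 222 CPM (median 172), and its femur LSD1WT replicate 2 libraries were at 63.7 and 73.5 CPM.

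Acap1, a GTPase-activating protein for ARF6 in vesicle recycling, was named after its values were seen, because its LSD1cKO libraries split by mouse. The libraries of LSD1cKO mouse 1L held 23.4 CPM in the mandible and 30.0 in the femur, and those of mouse 2L held 6.73 and 7.86. The unligated LSD1cKO mice were at 23.5 and 15.3 CPM, and the 6 LSD1WT libraries between 1.73 and 3.72. Over the 100 members, differences between mice 2L and 1L had a Pearson correlation of 0.417 between mandible and femur, against 0.026 over 15425 genes. Acap1 is 1 of the 100, and its large differences can weigh heavily on the first value, which was not computed without it. Both correlations are descriptions over genes from the same 4 libraries, and genes are not independent replicates. The 15425 genes also include genes with a mean under 1 CPM, while every member has a mean of at least 1 CPM. The 2 values are thus over genes of unlike levels, and the part of this in their difference was not tested.

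Cytokines, mediators and their receptors had the smallest median ratio of the role groups, 1.66, with a median fold between means of 4.03. Il2rg, the common gamma chain shared by the receptors of several interleukins, was at 23.7 to 87.7 CPM in LSD1WT (median 72.4) and at 146 to 209 CPM in LSD1cKO (median 181). Il1rn, the secreted antagonist of the interleukin-1 receptor, was at 77.8 and 75.2 CPM in the LSD1WT mandible, 62.4 and 5.15 in ligated femur and 51.3 and 4.28 in unligated femur. Its LSD1cKO libraries were between 119 and 172 CPM (median 150). With 1.53 the ratio of Il1rn was close to the threshold, and the mandible LSD1WT libraries set it. Hrh2, the histamine H2 receptor, had the smallest ratio of all members, at 0.879 to 3.82 CPM (median 2.94) and 5.73 to 8.70 CPM (median 7.67). Ltb4r1, the high-affinity receptor of leukotriene B4, was at 0.738 to 2.01 CPM (median 1.06) and at 3.35 to 9.32 CPM (median 5.97).

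Cxcl16, a membrane-bound and secreted chemokine, was 1 of 10 members with their highest LSD1WT value in ligated femur replicate 2, where 24.7% of all genes had theirs. It was at 24.1 and 23.1 CPM in the LSD1WT mandible, 35.4 and 81.9 in ligated femur and 50.9 and 36.1 in unligated femur. LSD1cKO libraries ran from 129 to 201 CPM (median 160). Zmynd15, a MYND-domain corepressor whose gene is the immediate neighbour of Cxcl16 in RefSeq order, was also highest there, with 4.82 CPM against 1.30 to 2.92 CPM in the other LSD1WT libraries, and had 8.08 to 12.3 CPM in LSD1cKO (median 9.88). Sigirr, an inhibitory member of the interleukin-1 receptor family, was at 2.34 to 4.72 CPM (median 4.003) and 7.86 to 12.2 CPM (median 9.88). Its immediate neighbour Pkp3, a plakophilin of desmosomes, was at 0.0830 to 0.749 CPM (median 0.353) and 1.30 to 3.54 CPM (median 2.54).

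Ido1 and Ido2, which lie side by side and encode enzymes that degrade tryptophan, were both members. Ido1 was at 0 to 0.524 CPM in LSD1WT (median 0.354) and at 1.34 to 3.44 CPM in LSD1cKO (median 2.25). Ido2 was at 0 to 2.77 CPM (median 2.39) and at 4.35 to 6.84 CPM (median 5.95). The other 4 LSD1WT libraries of Ido2 were within 2.08 to 2.77 CPM, while both femur replicate 2 libraries had 0 counts. Adam3 followed after 3 further genes in RefSeq order. Col4a5 and Col4a6, which encode chains of basement membrane collagen and lie close together on the X chromosome, were also both members, with a fold between means of 4.34 and 15.97. In LSD1cKO both were higher in the 2 mandible libraries (60.5 and 90.8 CPM for Col4a5) than in the 2 ligated femur libraries (37.7 and 37.8 CPM).

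Transcription regulators were few. Zbtb32, a zinc-finger repressor known from lymphocytes, had the largest fold between means of any member, 23.9. LSD1WT libraries held 0.0374 to 0.556 CPM (median 0.127), so this fold rests on few LSD1WT reads. The highest of them was mandible replicate 3, the library with conflicting labels. In LSD1cKO Zbtb32 was at 7.48 and 7.80 CPM in the mandible, 2.60 and 2.87 in ligated femur and 2.04 and 3.58 in unligated femur, so the mandible libraries were the highest. Klf4, a factor of monocyte differentiation, was at 8.75 to 15.5 CPM in LSD1WT (median 10.9) and at 30.8 to 43.4 CPM in LSD1cKO (median 38.8), and unligated femur replicate 2 was the highest LSD1WT library. Cebpe, a factor of late granulocyte differentiation, was at 0.559 to 1.80 CPM (median 1.26) and at 3.80 to 7.99 CPM (median 4.71). Zfp287, a zinc-finger protein, had the smallest fold between means, 2.06, and the narrowest LSD1WT spread, 4.54 to 5.54 CPM (median 4.64) against 8.32 to 12.1 CPM (median 9.91). Among little described genes Gm41307 led with a ratio of 6.51, at 0.0936 to 0.461 CPM (median 0.286) and 3.00 to 6.18 CPM (median 3.98). Gm19765 was just inside the threshold, at 0.200 to 5.42 CPM (median 3.97) and 8.15 to 16.04 CPM (median 12.2).

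The threshold cut a continuous series. The 5 members just inside it, Clec4a4, Adam3, Zfp287, Gm19765 and Hrh2, had ratios from 1.502 to 1.504. The 5 genes just outside were Socs1 (1.49), Stx11 (1.48), Klf8 (1.48), Rala (1.47) and Ripk2 (1.47). Scaling libraries by the TMM method, which balances composition, in place of total counts left 78 genes, all of them members. Leaving both femur LSD1WT replicate 2 libraries out of the rule gave 340 genes, which held all 100 members.

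Lists of cell type and pathway genes, 18 in number and written from general knowledge, held 6 members. These were Cebpe (1 of 17 measured neutrophil genes), Klf4 (1 of 17, monocyte) and Klra2 (1 of 32, receptors with ITAM or ITIM motifs). The others were Ltb4r1 (1 of 17, lipid mediators), and Cxcl16 and Il1rn (2 of 35, chemokines and cytokines). Of all 12512 genes, 0.887% met the rule before genes were set aside. Gfi1b and Spn, each on a list, were set aside, and the receptor list did not hold Lilra6, Tarm1 or the Pira genes. Without the fold threshold, every LSD1cKO library was above every LSD1WT library for 4 of 35 measured chemokine, cytokine and receptor genes, for 3 of 17 monocyte genes (Vcan, Klf4 and Spn), and for 2 of 17 neutrophil genes (Cebpe and Padi4), beside 2.48% of all genes. The count was 2 of 17 for lipid mediator genes (Alox5 and Ltb4r1), and 1 each for Gfi1b among LSD1 partners, Klra2 among the receptors, Adgrg1 among stem and progenitor genes and Vwf among megakaryocyte genes. It was 0 of 34 for interferon response genes, 0 of 20 for osteoclast genes, 0 of 20 for proliferation genes and 0 of 13 for resident macrophage genes. It was also 0 for the dendritic cell (13 measured), stromal (5), B cell (4), mast cell (3), T and NK cell (2) and erythroid (1) lists. Summed interferon response genes overlapped between the genotypes over all cultures (261 to 2449 CPM in LSD1WT and 478 to 6047 CPM in LSD1cKO) but not within any culture. They were at 478 and 857 CPM in LSD1cKO against 261 and 272 CPM in LSD1WT in the mandible, at 5204 and 6047 against 708 and 2449 CPM in ligated femur, and at 3416 and 4079 against 1085 and 1705 CPM in unligated femur. Summed resident macrophage genes were at 10195 and 8798 CPM in the femur LSD1WT replicate 2 libraries, 207 to 1065 in the other LSD1WT libraries and 458 to 2395 in LSD1cKO. The part of these cell type differences in the genotype values of the members was not tested.

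The median genotype ratio of the members differed between cultures, and the order of the cultures depended on the femur LSD1WT libraries kept. The log2 ratio of mean LSD1cKO to mean LSD1WT CPM had a median over members of 2.00 in the mandible, 2.60 in ligated femur and 2.32 in unligated femur, against medians of 0.07, -0.02 and 0.00 over all 12512 genes. It was largest in the mandible for 23 members, in ligated femur for 51 and in unligated femur for 26. These counts include the femur LSD1WT replicate 2 libraries and were not redone without them. The shares of all genes were not counted. Every member was positive in every culture, which the rule fixes, and the smallest value was 0.68, that of Il1rn in the mandible. Without femur LSD1WT replicate 2 the medians were 2.26 in the ligated and 1.91 in unligated femur. In edgeR's quasi-likelihood model the fitted log2 fold changes had medians of 1.93, 2.48 and 2.28 with a median standard error of 0.61, 0.62 and 0.62, beside -0.12 for the median of all genes in ligated femur.

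**Figure D3:**
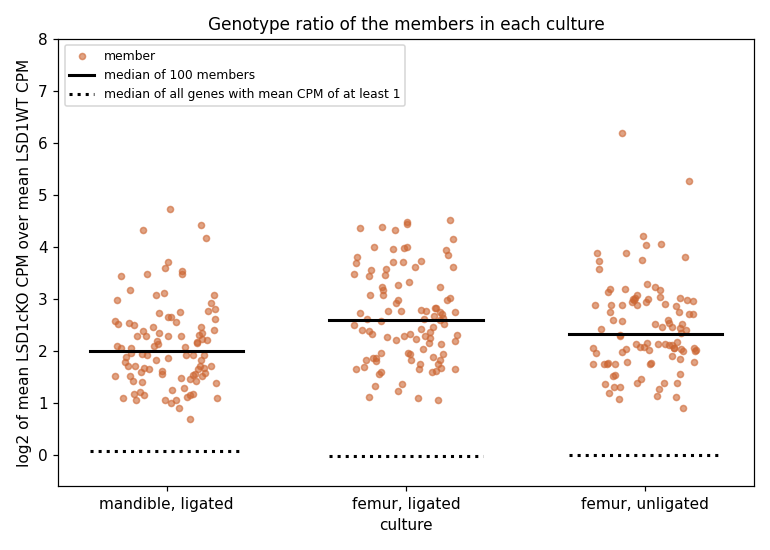
Log2 of mean LSD1cKO CPM over mean LSD1WT CPM (y axis) for each of the 100 members in the 3 cultures (x axis), with 2 libraries per genotype. Solid bars are the medians of members (2.00, 2.60 and 2.32) and dotted bars those of all genes with a mean of at least 1 CPM.

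The 6 LSD1WT libraries were less alike than the 6 LSD1cKO libraries for these genes. The highest over the lowest LSD1cKO value had a median of 1.97, from 1.21 for Trim2 to 4.98 for Mcemp1. In LSD1WT the same spread had a median of 4.34, and 9 members could not be given one because a library had 0 counts (Slc6a4, Gm6209, Ido1, Ido2, Serinc2, D630003M21Rik, Cyp2ab1, Ankdd1a and Dnm1). All those zeros fell in the femur replicate 2 libraries, where the osteoclast genes were low. Summed over members, CPM was 414 and 347 in these libraries, 615 to 709 in the other LSD1WT libraries and 1987 to 2587 in LSD1cKO. Replicate 2 was at most 0.5 times replicate 1 (CPM + 0.5) for 41 members in ligated femur, where 18.7% of all genes were, and for 46 in unligated femur, where 15.4% were. Since the rule used these libraries, the counts are a description. Over all genes too, the femur pairs were less alike in LSD1WT than in LSD1cKO. In LSD1cKO, replicate 2 was at most 0.5 times replicate 1 for 0.232% of all genes in ligated femur and 3.28% in unligated femur. In the mandible the second library was at most 0.5 times the first for 0.024% in LSD1WT and 0.216% in LSD1cKO.

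In 33 members replicate 2 was at most 0.5 times replicate 1 in both femur conditions, beside 11.6% of all genes. Among them Fgr was at 28.2 and 1.87 CPM with ligature and at 30.6 and 1.04 CPM without, and Mefv, which encodes the inflammasome sensor pyrin, was at 10.98 and 1.22 and, in unligated femur, at 10.6 and 0.200. The opposite, at least 2-fold higher in replicate 2, was seen in 4 members in ligated femur (Arhgef40, Ltb4r1, Cxcl16 and Mansc1), beside 15.1% of all genes, and in 6 in unligated femur (Slc52a3, Arhgef40, Raet1d, Abcg2, Agap2 and Mansc1), beside 14.4%. These counts are by the ratio of CPM + 0.5 and are a description too. Slc16a3, Crip1 and Zfp287 had the narrowest LSD1WT spreads, at most 1.38-fold, across libraries that differed by more than 100-fold in summed osteoclast genes.

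**Figure D4:**
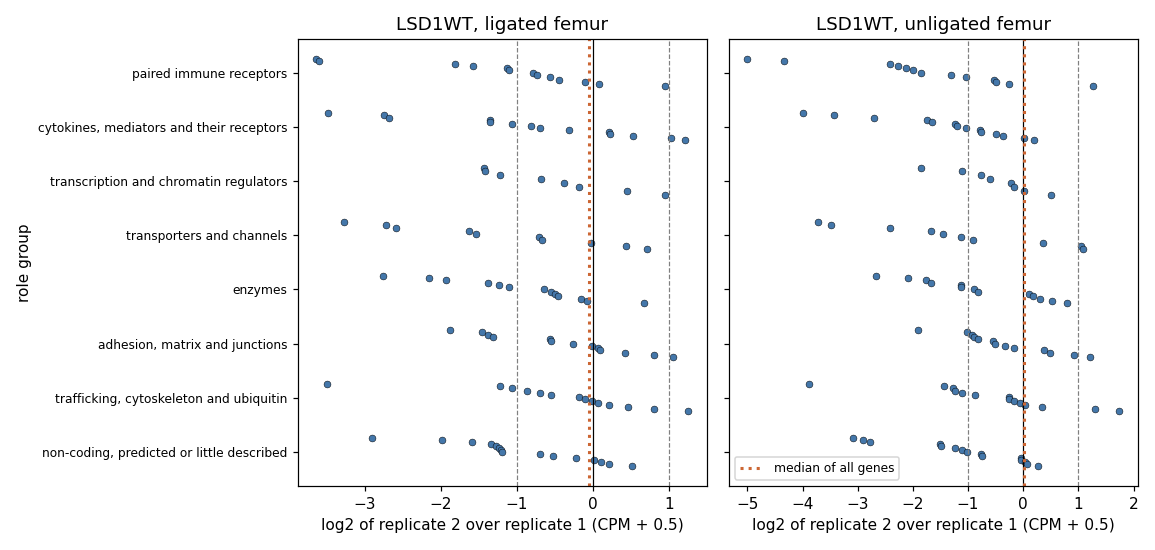
Log2 of replicate 2 over replicate 1 (CPM + 0.5, x axis) in femur LSD1WT, ligated (left) and unligated (right), for each member, by role group (y axis). Dashed lines mark 2-fold either way and the dotted line is the median of all genes. Points lie mostly left of 0, with 41 and 46 of 100 members at or below -1.

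Further contrasts asked whether members differed by marrow site or by ligature. The rule did not use these contrasts, but it used the same library values. A gene low in 1 LSD1cKO condition or high in 1 LSD1WT condition was less likely to pass it. Counts of members beside shares of all genes carry that limit. In edgeR's quasi-likelihood test over all 12 libraries, with Benjamini-Hochberg adjustment over 15425 genes, no member passed 0.05 in any of 6 contrasts, and neither did any other gene (0% of genes in each). These contrasts were mandible against ligated femur and ligated against unligated femur, each in LSD1cKO and in LSD1WT, and the 2 differences of the genotype effect between sites and between ligature states. At an unadjusted p under 0.05 stood 6 members for the site in LSD1cKO, beside 15% of all genes, 7 for the site in LSD1WT, beside 19.8%, and 1 for the difference of the genotype effect between sites, beside 0.966%. None did for the ligature in LSD1cKO (0.959% of all genes), the ligature in LSD1WT (0.765%) or the difference of the genotype effect between ligature states (0.344%). DESeq2 called 2 members for the site in LSD1cKO, beside 2.77% of genes with a p-value, 3 for the site in LSD1WT, beside 4.22%, and 0 elsewhere. Genes with a DESeq2 p-value numbered 27149, against 15425 in edgeR, and included genes with fewer reads than any member. The DESeq2 shares are thus not over genes of like level. On simulated counts the edgeR test recovered 12.5% of 4-fold changes for the site in LSD1cKO and 30.5% for the site in LSD1WT. It recovered 30% for the ligature in LSD1cKO, 13% for the ligature in LSD1WT and 0% for both differences of the genotype effect. Each contrast was simulated once from the same gene means and spreads, so the order of the genotypes in these values carries no meaning. Those spreads were estimated over all 12 libraries. The pair noise was 87.6 times sampling noise in ligated femur LSD1WT and 6.12 times in ligated femur LSD1cKO. Recovery at the spread of the LSD1cKO libraries alone was not simulated. A missing call does not show equal levels. The biological coefficient of variation was 0.421 in this fit, which includes both femur LSD1WT replicate 2 libraries.

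In LSD1cKO, more members were lower than higher in the mandible against ligated femur of the same mice. Without overlap between the 2 and 2 libraries, 56 members were lower in the mandible, beside 31% of all genes, and 17 were higher, beside 43.6%. When edgeR was fitted to these 4 libraries alone, with the same adjustment over 14475 genes, 43 members were lower and 10 higher in the mandible, beside 20.8% and 21.4% of all genes. With the mouse as a replicate block, 43 and 10 were called too, and 50 of the 53 members called were in both sets. The block lost Crip1, Fut7 and Stac2 (edgeR adjusted p = 0.063, 0.063 and 0.11) and gained Bvht, Lipn and Ido1 (0.043, 0.015 and 0.045), all 6 lower in the mandible. That fit estimates the spread from LSD1cKO libraries only, and fitting all libraries but the 2 femur LSD1WT replicate 2 libraries called 20 lower, beside 11% of all genes, and 4 higher, beside 10.7%.

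Mcemp1, a membrane protein known from mast cells and myeloid cells, showed the largest difference. It was at 3.39 and 3.57 CPM in the LSD1cKO mandible and at 15.0 and 16.9 CPM in ligated femur, a log2 fold change of -2.27 ± 0.16 (SE) in the 4-library fit of edgeR (adjusted p = 4.0e-05). Ceacam19, a member of the CEA adhesion family, was at 4.91 and 4.65 CPM against 17.5 and 14.9 CPM (-1.84 ± 0.15, edgeR adjusted p = 7.0e-05). Gca, grancalcin, a calcium-binding protein of granulocytes, was at 8.07 and 7.38 CPM against 19.1 and 20.003 CPM (-1.42 ± 0.13, edgeR adjusted p = 1.1e-04). Over 12 libraries the edgeR adjusted p was 0.15 for Mcemp1 and 0.12 for Gca, and DESeq2 called both (adjusted p = 4.3e-04 and 1.1e-04). These 3 genes were picked as the largest differences after their values were seen.

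Receptors of the paired cluster lay on the same side. Lilra6 was at 46.6 and 50.5 CPM in the LSD1cKO mandible and 84.0 and 81.2 CPM in ligated femur. In the 4-library fit 8 of 13 members of its group were called lower, beside 20.8% of all genes. Among them were Lilra6, Pira1, Pira2, Pira12, Pira13 and Pira2-ps1, whose reads can be shared, so these are not independent calls. Raet1d, a ligand of the NKG2D receptor, was the 1 called higher, beside 21.4% of all genes. Of the cytokine and mediator group 8 of 14 were lower, beside the same 20.8%, among them Cxcl16, Il1rn, Hrh2 and Ltb4r1. Npy, neuropeptide Y, was higher. Zbtb32 had the largest difference the other way, 1.40 ± 0.18 (SE, edgeR adjusted p = 6.7e-04 in 4 libraries). The others called higher in the mandible were Col4a5, Col4a6, Serinc2, Arhgef40, Agap2, Zdhhc15 and Gm30042. In LSD1cKO summed resident macrophage genes were at 458 and 653 CPM in the mandible and 2395 and 2003 CPM in ligated femur. Summed osteoclast markers were at 15869 and 15541 CPM and 20512 and 17879 CPM. Kdm1a itself was at 26.3 and 23.2 CPM in the LSD1cKO mandible and at 15.8 and 18.0 CPM in ligated femur. Lyz2 (lysozyme 2), whose locus drives Cre, was at 1335 and 1675 CPM and at 6511 and 7635 CPM. The part of these 4 in the site differences of the members was not tested.

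**Figure D5:**
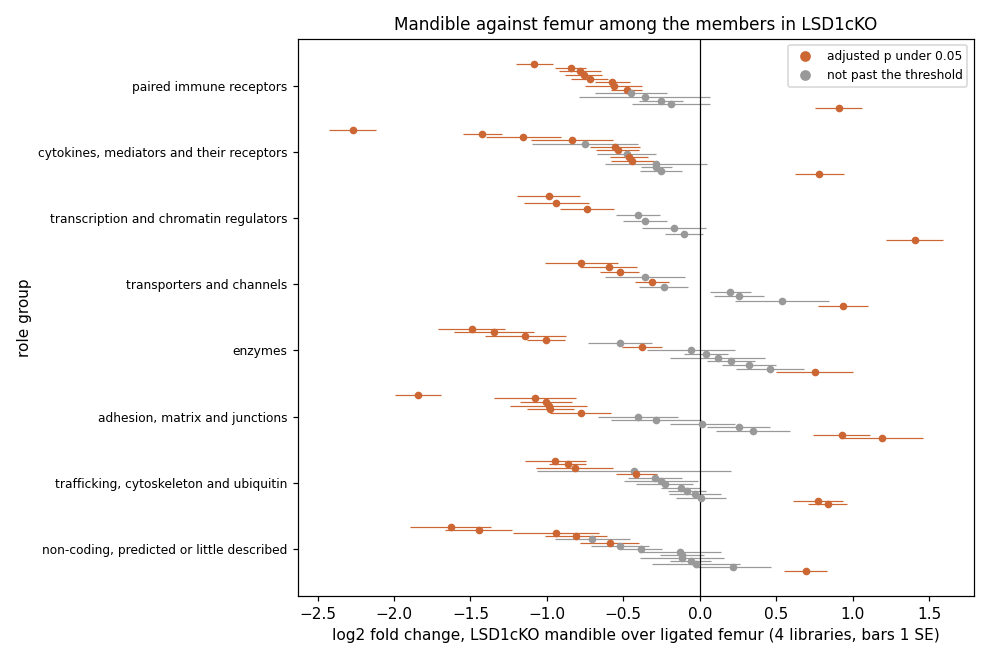
Log2 fold change of LSD1cKO mandible over ligated femur (x axis) for each member by role group (y axis), from edgeR fitted to the 4 LSD1cKO libraries, with bars of 1 SE. Orange points passed an adjusted p of 0.05, with 43 to the left of 0 and 10 to the right.

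In LSD1WT, the 3 members that DESeq2 called were all lower in the mandible than in ligated femur. They were Cxcl16 (log2 fold change -1.42 ± 0.42, SE), its neighbour Zmynd15 (-1.53 ± 0.47) and Sigirr (-0.94 ± 0.28), with DESeq2 adjusted p of 0.016, 0.021 and 0.017. By edgeR over 12 libraries their adjusted p values were 0.17, 0.18 and 0.17. Cxcl16 and Zmynd15 also had the largest LSD1cKO to LSD1WT log2 ratios of their 3 cultures in the mandible, 2.60 and 2.75, and the difference of that ratio between sites did not pass edgeR's test (adjusted p = 1.0 for both). The mandible arm of this comparison held replicate 3, the library with conflicting labels. Its counts and those of mandible replicate 1 had a median squared difference 1.55 times that of sampling noise. Taken as ligated femur, it left 1 mandible library. The median log2 fold change over members was then 0.15, against 0.24 when it was taken as mandible. The femur arm rests on 2 ligated femur libraries of which replicate 2 stood apart, and the calls followed which of them was kept. Without replicate 1, edgeR called 9 members, 5 higher (beside 9.19% of all genes) and 4 lower in the mandible (beside 14%). Without replicate 2, it called 0 members and 0% of all genes, and 7 members were at an unadjusted p under 0.05, beside 5.53% of all genes. In both fits the arm held 1 library, which was assumed to vary like those of the other groups, and the 9 calls set the mandible against the library that stood apart.

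Between ligated and unligated femur of LSD1cKO, 35 members were above without overlap, beside 13% of all genes, and 6 were below, beside 17.4%. No call was made by edgeR or DESeq2 for a member in this contrast in either genotype. Paired immune receptors gave 9 of the 35 and enzymes 6. The 6 below were Slc6a4, Trim2, Slc52a3, Slc16a3, Npy and Agap2. Ligated and unligated femur came from different mice, so the ligature and the mouse cannot be told apart beyond the spread of 2 animals per state. The 2 unligated femur LSD1cKO libraries were also unlike each other. Their median squared difference was 43.3 times that of sampling noise, against 6.12 times in ligated femur LSD1cKO. Summed osteoclast markers were at 28188 and 12116 CPM in these 2 unligated libraries.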

How the data were processed

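Values were read counts per gene that the authors deposited for 12 libraries of polyA RNA. The submitters' processing notes name HISAT2 2.1.0, featureCounts, edgeR and the build GRCm39. The counts are whole numbers with no normalization, and strand setting and handling of reads shared by paralogs are not given in the sources used here. Groups were taken from sample titles.

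CPM was the count over the library total, without length correction, so levels were not compared between genes. For 0 counts the upper limit given is that of 3 counts, for counting error only. The members, role groups, lists, tests and named genes were chosen with earlier results of these data known. Named were the 12 members with the largest ratio, the 12 with the highest mean LSD1cKO CPM, the 5 just inside and 5 just outside the threshold, members on a list, and members that are immediate neighbours. Every other member named was chosen after its values were seen, among them Acap1, Mcemp1, Ceacam19, Gca, Mefv, Col4a5, Col4a6, Armcx6, Gm5424, Raet1d and Npy.

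Site, ligature and interaction contrasts were tested in edgeR 4.0.16 (R 4.3.3; filterByExpr, TMM, quasi-likelihood model of 6 condition means, two-sided, Benjamini-Hochberg adjusted p held to 0.05), with DESeq2 1.42.0 as an alternative. The test was run on simulated counts with 200 changed genes. By their labels the 2 libraries of a condition came from different mice. The 2 ligated LSD1cKO mice pair mandible and femur by their labels. Promoter windows were matched by symbol to RefSeq on GRCm38.p6. The alternatives were RLE scaling, other low-count filters, only the libraries compared, replicate blocks, other thresholds, leaving out each library, and, chosen after seeing the data, leaving out both femur LSD1WT replicate 2 libraries, the mouse block in 4 libraries, and taking the library with conflicting labels as femur.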

Additional observations from a re-analysis of the deposited data

Results flagged for a closer look

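Of 70 groups of 6 libraries examined (35 named members in each genotype), 3 held a library whose gap to its nearest neighbour was large against the range of its group, and chance gives such a gap in about 1 of 20 groups. Zbtb32 was at 0.556 CPM in mandible LSD1WT replicate 3, the library with conflicting labels, while the other LSD1WT libraries were between 0.0374 and 0.215 CPM. Napsa was at 17.6 CPM in unligated femur LSD1WT replicate 2, and the others were between 31.5 and 39.2 CPM. Slc16a3 was at 75.1 CPM in mandible LSD1cKO replicate 2, and the others were between 51.1 and 54.5 CPM.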

How the results depend on the processing

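The number of members was 100. It was 42 at a threshold of 2-fold, 50 at a mean of at least 5 CPM and 340 without both femur LSD1WT replicate 2 libraries. With 1 library left out it ran from 98 to 118. Other scalings gave 78, a looser threshold 144 and a mean of at least 0.5 CPM 116. For the site in LSD1cKO, the fit to 12 libraries called 0 members (0% of all genes tested), no low-count filter 1 (beside 1.21%), DESeq2 2 (2.77%), all libraries but both femur LSD1WT replicate 2 libraries 24 (21.7%), and the 4 compared libraries 53 (42.1%), also 53 with the mouse as replicate block (38.2%). With 1 library left out it was 0 to 1, the 1 without replicate 1 or 2 of ligated femur LSD1WT (4.25% and 4.12%) or of unligated femur LSD1WT (0.736% and 0.779%). For the site in LSD1WT, the counts were 0 in the fit to 12 libraries (0%), 1 without the filter (3.02%), 3 by DESeq2 (4.22%), 1 without both of those libraries (0.9%), and 0 to 9 with 1 library left out, the 9 without ligated femur LSD1WT replicate 1 (23.2%). A replicate block over the 12 libraries, for the mouse or the replicate number, called 0 members in every contrast. Ligature contrasts and both interactions gave 0 members under every alternative run, edgeR and DESeq2. With 1 library left out the median log2 ratio ran from 1.89 to 2.101 in the mandible, 2.26 to 3.22 in the ligated femur and 1.91 to 3.09 in the unligated femur. Of the 35 named members, 11 fell below 1.5 under TMM or RLE scaling, to 1.35 at the lowest, and none reversed. The cause of these shifts was not tested. Depth limits members with few reads in LSD1WT, and 2 libraries per condition limit every contrast.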
